A study of Mus musculus with 12 samples.

Results

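The genes described here are the collagen genes, defined as every gene whose GENCODE M21 symbol is Col, a number, a and a number, read in the liver of mice with chemically induced fibrosis. Of 44 such symbols in the annotation, 31 were listed in the protein-coding table, through 48 transcripts, among 14188 genes in all. The value of a gene was the sum of the FPKM (fragments scaled to transcript length and library size) of its listed transcripts. Both groups were mice whose strain is C57BL/8 in the labels and C57BL/6J in the methods, male and 6 weeks old at the start, and both received CCl4, a solvent that injures hepatocytes, by 2 intraperitoneal injections per week. The 6 mice of the PZH group were also given Pien Tze Huang, a traditional Chinese medicine, by gavage 1 time a day at 0.25 mg/g. The 6 mice of the control group were given double distilled water in its place, and all were killed in week 8. There was no group without CCl4 in these RNA data, so each value compares treated with untreated fibrotic liver.

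Collagens are triple helices of α chains that form the extracellular matrix. Types I, III and V assemble into fibrils, and in fibrotic liver these are made mainly by activated stellate cells and portal fibroblasts. Type IV chains form the network of basement membranes, while type VI makes beaded filaments, FACIT members such as type XIV sit on fibril surfaces, and the multiplexins XV and XVIII are proteoglycans of basement membrane zones whose C-terminal pieces are released as restin and endostatin. In whole liver RNA, fewer cells of a type and less RNA per cell cannot be told apart.

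The sum of FPKM over all transcripts lay between 325301.9 and 370425.6 per mouse, with the highest value in PZH mouse 1. The median-ratio factor of a mouse, a scale factor taken over transcripts above 0 in every mouse, was 0.856 to 1.02 in PZH mice and 1.04 to 1.12 in control mice, and PZH mouse 1 had the lowest. Over all genes the median log2 fold change (PZH over control, of FPKM + 1) was -0.11 as deposited and -0.005 after division by these factors, and both scales are therefore given below. The 6 hepatocyte markers summed to 42650 to 59410 FPKM in PZH mice and to 24790 to 38420 FPKM in control mice, without overlap. Alb, with means of 38440 and 24060 FPKM, made up most of these sums, while Serpina1c, with means of 2132 and 2123 FPKM, was not called on either scale. The 10 stellate cell and myofibroblast markers summed to 279.7 to 371.4 FPKM in PZH mice and 236.9 to 340.4 in control mice. Dcn, with means of 184.0 and 169.8 FPKM, was the largest part of these sums and was not called on either scale. Acta2, Tagln and Des were called lower and Reln and Lum higher. The part of these shifts in the collagen values was not tested.

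The collagen genes did not move in 1 direction. Col3a1, Col5a3, Col14a1, Col18a1 and Col4a5 were higher in the PZH group, by log2 fold changes of 0.45 to 0.62. The paired basement membrane genes Col4a1 and Col4a2 were lower, by 0.48 and 0.51 on the log2 scale, while Col1a1 differed by less than its spread between mice. By limma with Benjamini-Hochberg adjustment over all 14188 genes at a threshold of 0.05, which is what called means below, 2 of the 31 collagen genes were called lower, against 32.1% of all genes, and 7 were called higher, against 12.7% of all genes. On leaving out 1 mouse the count called lower was 1 without PZH mouse 4 or 6 or control mouse 3, 4, 5 or 6, and 3 without PZH mouse 2. The share over all genes was not counted with a mouse left out. With the median-ratio factor the counts were 1 called lower, against 19.7%, and 10 called higher, against 19.3%. None of the 31 reached a 2-fold change of FPKM + 1 with an unadjusted p under 0.05 in either direction, where 2.5% of all genes did so lower and 1.52% higher. Without the added 1 FPKM, the ratio of the group means was 2.15 for Col4a4 and 2.17 for Col8a2, both called higher, and 2.29 for Col28a1, which was not called. The 2 groups did not overlap, with the PZH mice higher, for 3 collagen genes (Col14a1, Col4a4 and Col4a5), against 6.46% of all genes, and with the PZH mice lower for 0, against 17.9%. At an unadjusted p under 0.05, 3 collagen genes were lower (Col4a1, Col4a2 and Col12a1), against 37.0% of all genes, and 7 higher, against 14.7%.

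**Figure D1:**
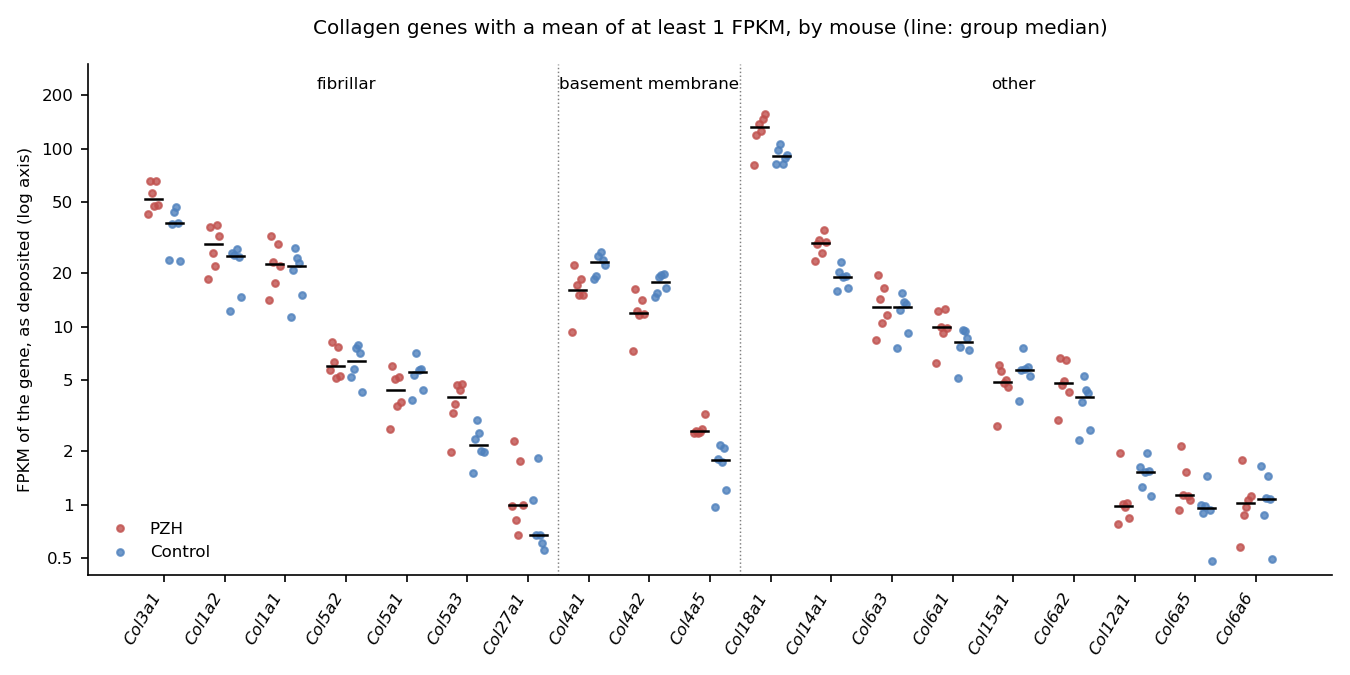
FPKM (log axis) of the 19 collagen genes with a mean of at least 1 FPKM in each of the 6 PZH and 6 control mice, in the 3 classes used here, with 1 point per mouse and a line at the group median. Col18a1 lies highest with group medians of 132 and 90.4 FPKM, and the PZH points of Col14a1 and Col4a5 lie wholly above the control points.

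Among the fibrillar genes, Col3a1, which codes for the chain of type III collagen, was the most abundant. It ranged from 43.0 to 66.2 FPKM in the PZH group, with a median of 52.2, and from 23.5 to 47.3 FPKM in control mice, with a median of 38.1. All 6 PZH mice lay above 4 of the 6 control mice, but the ranges overlapped. The log2 fold change was 0.62 ± 0.18 (SE, n = 6 per group), called higher (limma adjusted p = 0.0146), and 0.80 with the median-ratio factor (limma adjusted p = 0.00227), where the groups no longer overlapped. Col5a3, a chain of type V collagen, ranged from 1.97 to 4.73 FPKM (median 4.05) in PZH mice and from 1.5 to 3.0 FPKM (median 2.17) in control mice. It was called higher on both scales, by 0.55 ± 0.16 on the log2 scale (SE, limma adjusted p = 0.0134) as deposited and 0.68 with the factor (limma adjusted p = 0.0034).

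The genes of type I collagen were not called as deposited. Col1a1, its α1 chain, ranged from 14.1 to 32.3 FPKM (median 22.5) in PZH mice and from 11.3 to 27.5 FPKM (median 21.8) in control mice, so the ranges almost coincided. Its log2 fold change was 0.18 with a 95% interval of -0.31 to 0.67 (limma adjusted p = 0.556), and 0.35 with an interval of -0.09 to 0.79 with the factor (limma adjusted p = 0.19). The first interval held 0 as well as 0.62, the value of Col3a1. Col1a2, the α2 chain, ranged from 18.5 to 37.3 FPKM (median 29.0) in PZH mice and from 12.3 to 27.2 FPKM (median 24.9) in control mice. It was not called as deposited (log2 fold change 0.40 ± 0.22, SE, limma adjusted p = 0.164) but was called higher with the factor (0.58, limma adjusted p = 0.0395).

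In 3 mice the type I and III genes were low together. Control mice 1 and 6 had 11.3 and 15.2 FPKM of Col1a1, against 20.8 to 27.5 in the other 4 control mice, and they also had the lowest Col1a2 and Col3a1 of their group. PZH mouse 1 was the lowest of its group for all 3 genes, with 14.1 FPKM of Col1a1, 18.5 of Col1a2 and 43.0 of Col3a1. The log2 fold change of Col1a1 was 0.30 without PZH mouse 1, 0.03 without control mouse 1 and 0.11 without control mouse 6, uncalled each time, and that of Col1a2 was 0.52, 0.26 and 0.31, also uncalled. That of Col3a1 was 0.69, 0.52 and 0.52 in the same order, and it was called higher each time.

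The other fibrillar genes above 1 FPKM were not called. Col5a2 ranged from 5.12 to 8.19 FPKM (median 6.01) in PZH mice and from 4.29 to 7.86 (median 6.43) in control mice. Col5a1 ranged from 2.64 to 6.03 FPKM (median 4.41) in PZH mice and from 3.85 to 7.11 (median 5.54) in control mice. The log2 fold change of Col5a2 was 0.03 (95% interval -0.29 to 0.34) and that of Col5a1, which shares trimers with it, was -0.26 (-0.61 to 0.10). Col27a1, a fibrillar gene best known from cartilage, ranged from 0.674 to 2.28 FPKM (median 0.993) in PZH mice and from 0.56 to 1.83 (median 0.677) in control mice and was not called. Col11a2 and Col24a1 had means of about 0.1 FPKM and were not called.

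Among the basement membrane genes, Col4a1 and Col4a2, which code for the 2 chains of the widespread type IV network, were the collagen genes called lower. Col4a1 ranged from 9.29 to 22.3 FPKM (median 16.1) in PZH mice and from 18.6 to 26.3 (median 23.0) in control mice. Col4a2 ranged from 7.32 to 16.2 FPKM (median 12) in PZH mice and from 14.8 to 19.7 (median 17.7) in control mice. PZH mouse 2 lay inside the control range for both genes, and PZH mouse 5 did so for Col4a1, with 18.63 FPKM. The log2 fold change was -0.48 ± 0.17 (SE, limma adjusted p = 0.0305) for Col4a1 and -0.51 ± 0.15 (SE, limma adjusted p = 0.014) for Col4a2. With the factor Col4a1 was no longer called (-0.31, limma adjusted p = 0.0903) and Col4a2 still was (-0.34, limma adjusted p = 0.0405). The call of Col4a1 was also lost on leaving out any 1 of PZH mice 4 and 6 or of control mice 3, 4, 5 and 6, with adjusted p up to 0.0646.

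These genes lie head to head on chromosome 8 (GRCm38), Col4a1 on the minus and Col4a2 on the plus strand, and their annotated first exons share 22 bases. This stretch is shown because both genes start within it. It is given on the plus strand at chr8:11312801-11312830 (RefSeq promoter table, GRCm38.p6), with the 22 bases that both first exons hold in capitals.
Col4a1 and Col4a2 starts: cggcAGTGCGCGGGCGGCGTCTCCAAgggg
The ratio of Col4a1 to Col4a2 within a mouse lay between 1.27 and 1.40 (median 1.30) in PZH mice and between 1.21 and 1.35 (median 1.28) in control mice. The log2 difference was 0.04, within the spread between mice (two-sided exact permutation test, p = 0.297), and the spread of this ratio within a group, with an SD of 0.06 on the log2 scale in both groups, was the smallest of the 12 ratios computed.

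The remaining type IV genes, whose chains form the more restricted networks, were not called lower. Col4a5, on chromosome X, ranged from 2.51 to 3.21 FPKM (median 2.58) in PZH mice and from 0.972 to 2.17 (median 1.77) in control mice, so the groups did not overlap. It was called higher, by 0.48 ± 0.11 on the log2 scale (SE, limma adjusted p = 0.00388) and 0.61 with the factor (limma adjusted p = 0.000905). Col4a4 was low but also without overlap, from 0.22 to 0.416 FPKM (median 0.276) in PZH mice and from 0.117 to 0.146 (median 0.135) in control mice. It was called higher (0.18 ± 0.05, SE, limma adjusted p = 0.0116), a size that the added 1 FPKM understates, since the ratio of the group means was 2.15. Col4a3 and Col4a6, the head-to-head neighbours of Col4a4 and Col4a5, had log2 fold changes of 0.06 and 0.07 at means of 0.242 and 0.282 FPKM and were not called. Between the 5′ ends of their listed transcripts lay 126 bases for the first of these pairs and 1308 for the second.

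Col18a1 had the highest FPKM of any collagen gene and made up 36.4% of the summed collagen FPKM of a mouse in PZH mice and 32.9% in control mice on average. It ranged from 81.2 to 156.5 FPKM (median 132) in PZH mice and from 82.0 to 106.3 (median 90.4) in control mice. In 5 PZH mice it lay above every control mouse, and PZH mouse 1 lay below all of them. Without that mouse the log2 fold change was 0.58 (limma adjusted p = 0.000426). With all mice Col18a1 was called higher, by 0.45 ± 0.14 on the log2 scale (SE, limma adjusted p = 0.0179) and 0.64 with the factor (limma adjusted p = 0.0013).

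Its transcripts start at 2 places on the minus strand of chromosome 10 (GRCm38). The upstream start gives ENSMUST00000081654 (42 exons, 1315 codons), and a start 52.8 kb downstream, in an intron of that transcript, gives ENSMUST00000105409 (1527 codons), with ENSMUST00000072755 (1774 codons) beginning close to it. Both share 39 exons with the upstream transcript. The upstream transcript ranged from 23.6 to 42.7 FPKM (median 34.8) in PZH mice and from 14.9 to 24.6 (median 18.9) in control mice, with 1 PZH mouse inside the control range. It was called higher over all 29876 transcripts (log2 fold change 0.78 ± 0.15, SE, limma adjusted p = 0.00281). The main downstream transcript, with 42.1 to 86.2 FPKM (median 75.0) in PZH mice and 43.6 to 60.9 (median 50.2) in control mice, was not called as deposited (0.44, limma adjusted p = 0.0746) but was with the factor (0.63, limma adjusted p = 0.0104). The ratio of the upstream transcript to both downstream ones was 0.353 to 0.422 (median 0.396) in PZH mice and 0.244 to 0.357 (median 0.292) in control mice. This ratio was chosen after the transcript values were seen, and its log2 difference was 0.41 (two-sided exact permutation test, p = 0.00433, n = 6 per group). How StringTie divides reads of the 39 shared exons between the transcripts limits it.

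The bases before the upstream start are shown because the transcript called higher begins there. They run 5′ to 3′ on the minus strand, chr10:77166549-77166780 (RefSeq, GRCm38.p6), up to the first annotated exon, with GGGCGG or its reverse complement CCGCCC in capitals.
Col18a1 before the upstream start: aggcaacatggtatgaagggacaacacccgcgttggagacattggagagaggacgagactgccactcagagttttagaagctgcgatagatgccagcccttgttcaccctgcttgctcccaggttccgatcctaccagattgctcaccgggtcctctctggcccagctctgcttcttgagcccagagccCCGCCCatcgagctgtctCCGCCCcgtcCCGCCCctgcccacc
The motif occurred 3 times in the 250 bases before the RefSeq upstream start and 0 times in the 250 before the RefSeq downstream start, counted on both strands. The first of these windows runs on to chr10:77166531, past the start of the annotated transcript, but all 3 occurrences lie in the bases shown. Among all RefSeq promoters, 32.7% of 32851 windows of 250 bases held it, and 16 of the 28 windows of the 26 collagen genes with an entry did. Col6a2 and Col18a1 were each counted by both of their windows, and those of Col6a2 overlapped. The motif holds only G and C. The share of G and C was 35.2% to 76.4% in the collagen windows, most of which lay above the median of all windows, 52.4%. The part of this share in the motif count was not tested. CCAAT, on either strand, was in 7 of these 28 windows against 33.8% of all windows, and TATAAA, on either strand, was in 4 against 12.4%.

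**Figure D2:**
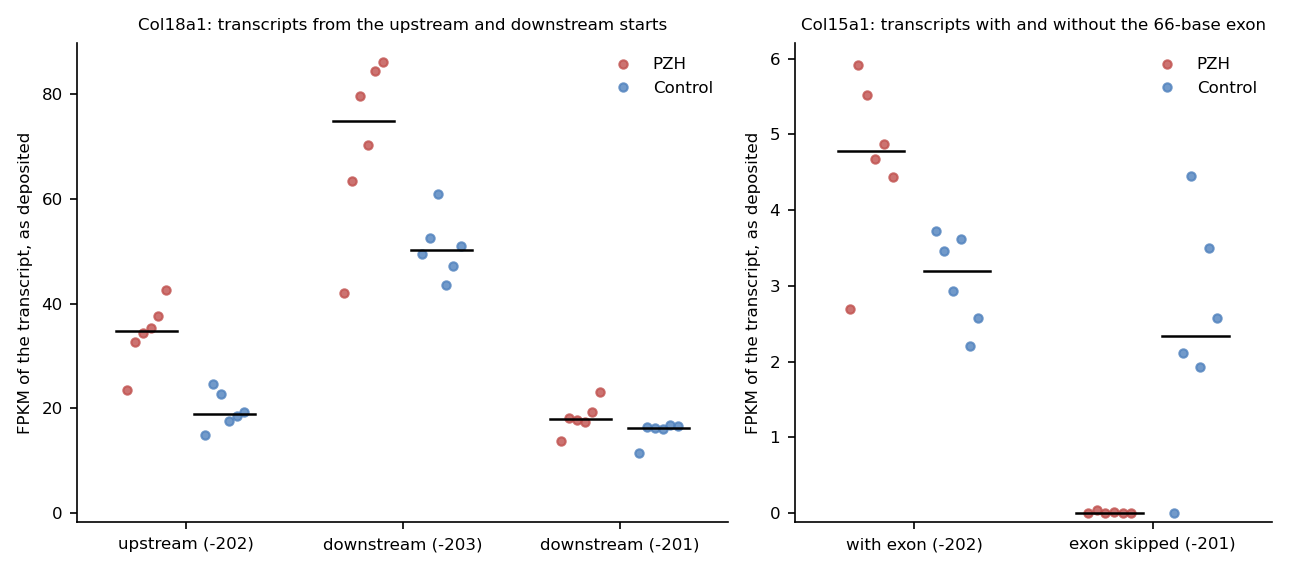
FPKM of the full-length Col18a1 transcripts from the upstream and downstream starts (left) and of the Col15a1 transcripts with and without the 66-base exon (right), with 1 point per mouse and a line at the group median. The exon-skipping Col15a1 transcript is at or near 0 in all 6 PZH mice and in control mouse 1, and reaches 4.45 FPKM in control mice.

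Col15a1, the other multiplexin, was not called as a gene, with 2.77 to 6.07 FPKM (median 4.91) in PZH mice and 3.84 to 7.56 (median 5.73) in control mice (log2 fold change -0.21, 95% interval -0.54 to 0.13, limma adjusted p = 0.306). Read by its highest transcript alone it was called higher (0.47, limma adjusted p = 0.0292). Col15a1-201 (ENSMUST00000082303) was at 0 to 0.0341 FPKM in PZH mice and at 0 to 4.45 FPKM (median 2.34) in control mice, where only mouse 1 was at 0. It was called lower (log2 fold change -1.60 ± 0.32, SE, limma adjusted p = 0.00445) and was the only collagen transcript with a 2-fold change and an unadjusted p under 0.05 in the lower direction. Col15a1-202 (ENSMUST00000102917) ranged from 2.70 to 5.92 FPKM (median 4.78) in PZH mice and from 2.21 to 3.72 (median 3.19) in control mice, and was called higher with the factor (0.60, limma adjusted p = 0.0104) but not as deposited (0.47, limma adjusted p = 0.0506). The share of Col15a1 FPKM on the skipping transcript was 0% to 0.562% in PZH mice and 0% to 59.2% (median 42.9%) in control mice, a difference chosen after the values were seen (two-sided exact permutation test, p = 0.0152, n = 6 per group).

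Apart from 4 bases at the 3′ end, these Col15a1 transcripts differ by 1 coding exon of 66 bases, the 17th of 40, at chr4:47280149-47280214 on the plus strand (GRCm38). It is shown in capitals because the transcript called lower lacks it, with 15 bases of the neighbouring exons on either side in lower case (GENCODE M21 transcript sequence).
Col15a1 exon 17 with flanks: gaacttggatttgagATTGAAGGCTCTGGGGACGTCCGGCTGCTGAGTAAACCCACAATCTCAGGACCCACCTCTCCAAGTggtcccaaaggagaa
Its 66 bases are 22 whole codons. The deposited values hold no junction reads, so the inclusion of this exon was not measured directly.

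Col14a1, a FACIT collagen that binds fibril surfaces, was the only collagen gene above 10 FPKM whose groups did not overlap. It ranged from 23.3 to 34.9 FPKM (median 29.4) in PZH mice and from 15.8 to 23.0 (median 19.1) in control mice. The log2 fold change was 0.58 ± 0.11 (SE, limma adjusted p = 0.000811) and 0.76 with the factor (limma adjusted p = 6.49e-05). Of its 3 transcripts, Col14a1-201 and Col14a1-204 were called higher (log2 fold changes 0.72 and 0.44), and Col14a1-203 was not (0.24, limma adjusted p = 0.371). Col12a1, a related FACIT gene, ranged from 0.781 to 1.95 FPKM (median 0.986) in PZH mice and from 1.12 to 1.95 (median 1.53) in control mice. It was not called (log2 fold change -0.27, limma adjusted p = 0.0856), but without PZH mouse 2, which lay far above the other 5, it was called lower (-0.37, limma adjusted p = 0.00393).

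The type VI genes, whose α1, α2 and α3 chains form 1 trimer, lay between these patterns. Col6a1 ranged from 6.22 to 12.5 FPKM (median 9.89) in PZH mice and from 5.18 to 9.60 (median 8.16) in control mice. Col6a2 ranged from 2.98 to 6.69 FPKM (median 4.84) in PZH mice and from 2.29 to 5.27 (median 4.03) in control mice. Neither was called as deposited (log2 fold changes 0.29 and 0.34), and both were called higher with the factor (0.45 and 0.48, limma adjusted p = 0.0204 and 0.0351). Both were also called higher as deposited without PZH mouse 1 (0.40 and 0.45, limma adjusted p = 0.0332 and 0.0492). Col6a3 ranged from 8.39 to 19.4 FPKM (median 13.0) in PZH mice and from 7.55 to 15.4 (median 12.9) in control mice and was not called on either scale. Its transcript Col6a3-207, a piece of 476 bases and 3 exons, was called lower as deposited (log2 fold change -0.67, limma adjusted p = 0.0405) but not with the factor (-0.56, limma adjusted p = 0.069). Its longest transcript, Col6a3-202, was not called as deposited (0.36, limma adjusted p = 0.177) but was called higher with the factor (0.52, limma adjusted p = 0.032). Col6a5 ranged from 0.929 to 2.13 FPKM (median 1.13) against 0.481 to 1.45 (median 0.955), and Col6a6 from 0.58 to 1.78 FPKM (median 1.02) against 0.497 to 1.64 (median 1.08). Neither of these was called.

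The remaining 7 genes of the mixed class had means under 1 FPKM. Col8a2, a short-chain collagen of endothelial and corneal matrix, was called higher, with 0.153 to 0.277 FPKM (median 0.238) in PZH mice and 0.0492 to 0.172 (median 0.0944) in control mice (log2 fold change 0.15, limma adjusted p = 0.0312). Col10a1, Col16a1, Col13a1, Col8a1, Col20a1 and Col28a1 were not called, with log2 fold changes of -0.15 to 0.17. None of the 31 genes was at 0 in any mouse. The 13 symbols not listed (Col2a1, Col6a4, Col7a1, Col9a1, Col9a2, Col9a3, Col11a1, Col17a1, Col19a1, Col22a1, Col23a1, Col25a1 and Col26a1) were not analysed here, and the lowest sum of any listed transcript over the 12 mice was 1 FPKM.

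**Figure D3:**
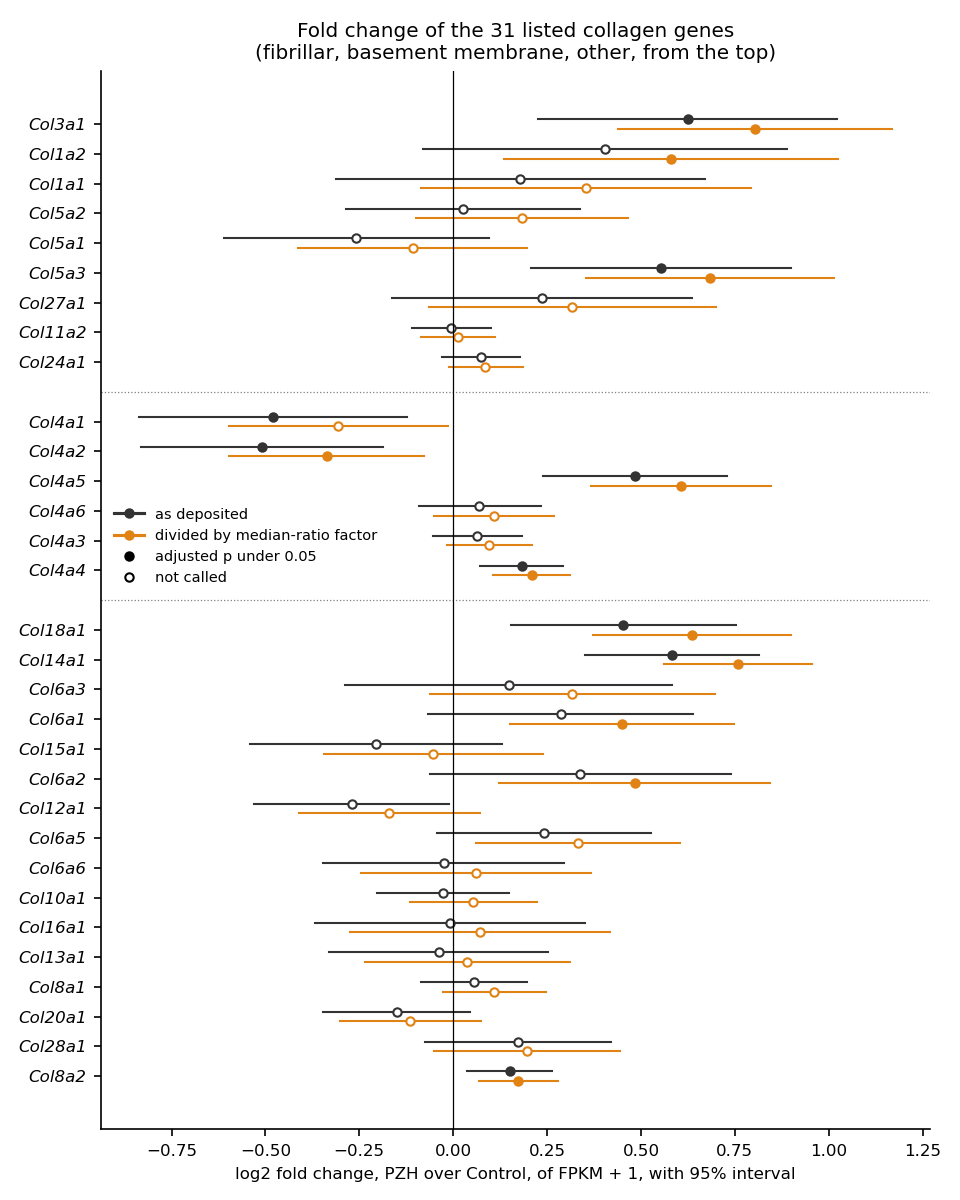
Log2 fold change (PZH over control, of FPKM + 1) of the 31 listed collagen genes with 95% intervals from limma, as deposited (dark) and after division by the median-ratio factor (orange), with filled points where the adjusted p is under 0.05. Col4a1 and Col4a2 are the genes whose intervals lie below 0 on both scales, and Col3a1 has the highest value on both, 0.62 and 0.80.

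By class, the median log2 fold change was 0.18 for the 9 fibrillar genes, 0.07 for the 6 basement membrane genes and 0.10 for the 16 others, and 0.07 for all 31, beside -0.11 for all genes. With the factor these medians were 0.32, 0.10, 0.14 and 0.17, beside -0.005. Over the genes with a mean of at least 1 FPKM the medians as deposited were 0.24 for 7 fibrillar, -0.48 for 3 basement membrane and 0.24 for 9 other genes, beside -0.17 for all such genes, so the basement membrane median had the opposite sign in this smaller set. The summed FPKM of the fibrillar genes was 87.1 to 154.3 (median 119.2) in PZH mice and 59.0 to 116.6 (median 100.2) in control mice. That of the basement membrane genes, here type IV alone, was 19.8 to 41.9 (median 31.8) against 34.9 to 48.2 (median 43.3). Both sums overlapped between the groups. Col15a1 and Col18a1, which code for proteoglycans of basement membrane zones, were counted with the other genes. Col18a1 had means of 127.9 FPKM in PZH mice and 91.7 in control mice, and Col15a1 of 4.81 and 5.67, so the lower sum holds for type IV alone. At the transcript level, 3 of the 48 collagen transcripts were called lower (Col4a2-201, Col6a3-207 and Col15a1-201), against 14.0% of all transcripts, and 7 higher, against 5.73% (Col3a1-201, Col4a4-201, Col4a5-202, Col5a3-201, Col14a1-201, Col14a1-204 and Col18a1-202). With the factor these counts were 1, against 8.33% of all transcripts, and 15, against 8.58%. With a 2-fold change and an unadjusted p under 0.05, 1 was lower, against 1.99% of all transcripts, and 0 were higher, against 1.25%.

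Ratios within a mouse do not depend on the scaling of its column, and 12 pairs were compared, each by exact permutation of the group labels (two-sided) with adjustment over the 12. The pairs were chosen with earlier results of these data known, which neither the exact nor the adjusted p-values take into account. The ratio of Col4a1 to Col1a1 was 0.639 to 0.848 (median 0.69) in PZH mice and 0.901 to 1.64 (median 1.07) in control mice, so this ratio was lower in every PZH mouse than in any control mouse. The log2 difference was -0.70 (exact permutation p = 0.0022, the smallest this design can give, adjusted 0.026). The ratio of Col3a1 to Col1a1 was 2.04 to 3.06 (median 2.35) against 1.55 to 2.10 (median 1.75), a log2 difference of 0.45 (exact permutation p = 0.00433, adjusted 0.026), with an overlap of 1 PZH mouse with the control range. The ratio of Col5a1 to Col5a2 differed by -0.35 and that of Col15a1 to Col1a1 by -0.44 on the log2 scale (exact permutation p = 0.0152 and adjusted 0.0455 for both). With the highest transcript of each gene in place of the sum, the direction of Col15a1 to Col1a1 turned, to 0.40 (exact permutation p = 0.178).

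The ratio of Col1a1 to Col1a2, the chains of 1 trimer, was 0.678 to 0.894 (median 0.792) in PZH mice and 0.80 to 1.09 (median 0.924) in control mice. Its log2 difference of -0.23 did not pass adjustment (exact permutation p = 0.0238, adjusted 0.0571). That of Col14a1 to Col1a1 also did not (0.42, exact permutation p = 0.0455, adjusted 0.0909). The other 6 ratios, Col4a1/Col4a2, Col6a1/Col6a2, Col6a3/Col6a1, Col5a2/Col1a1, Col6a1/Col1a1 and Col18a1/Col1a1, had adjusted values of 0.178 to 0.37. Among chains that assemble with each other, the log2 difference was -0.35 for Col5a1/Col5a2, -0.23 for Col1a1/Col1a2, -0.16 for Col6a3/Col6a1, -0.10 for Col6a1/Col6a2 and 0.04 for Col4a1/Col4a2, and that of Col5a1/Col5a2 alone passed adjustment.

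**Figure D4:**
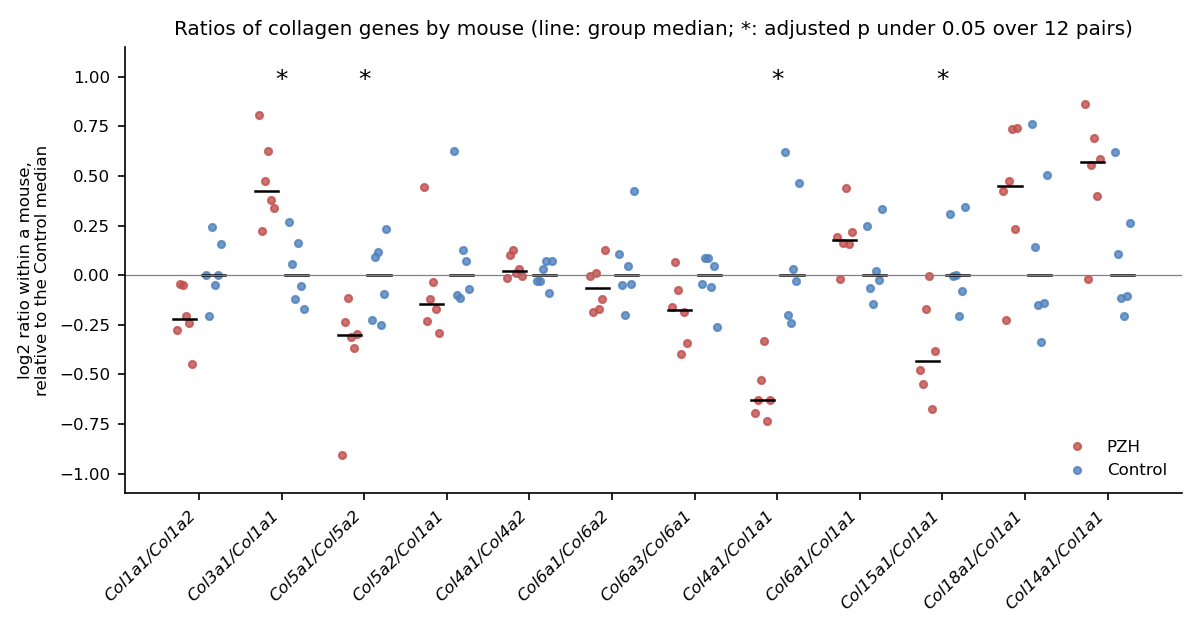
Log2 ratio of 12 pairs of collagen genes within each mouse, shown relative to the control median of the pair, with 1 point per mouse, a line at the group median and a star where the adjusted exact permutation p is under 0.05. For Col4a1/Col1a1 all 6 PZH mice lie below all 6 control mice, while for Col4a1/Col4a2 the 2 groups lie on each other.

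Across the 6 mice of a group, 8 collagen genes were compared with Col1a1, giving 16 relations whose values share each column's scaling. In the PZH group Pearson's r on log2(FPKM + 1) was 0.96 for Col3a1 (permutation p = 0.00278, adjusted 0.0133; Spearman's rho 0.94, permutation p = 0.0167, adjusted 0.0533). It was 0.95 for Col4a1 (permutation p = 0.00139, adjusted 0.0111; rho 1.0, permutation p = 0.00278, adjusted 0.0222). For Col6a1 it was 0.955 (permutation p = 0.00417, adjusted 0.0133; rho 0.94, permutation p = 0.0167, adjusted 0.0533). In the control group r was 0.94 for Col3a1 (permutation p = 0.0125, adjusted 0.0278; rho 0.89, permutation p = 0.0333, adjusted 0.0533) and 0.96 for Col6a1 (permutation p = 0.00139, adjusted 0.0111; rho 1.0, permutation p = 0.00278, adjusted 0.0222). For Col4a1 in control mice r was 0.745 (permutation p = 0.1, adjusted 0.114; rho 0.89, permutation p = 0.0333, adjusted 0.0533). Without the 2 mice farthest from the median of Col1a1, r in PZH mice was 0.92 for Col3a1, 0.90 for Col4a1 and 0.94 for Col6a1. In control mice it was 0.71, 0.74 and 0.91 in the same order. The relation of Col1a1 to Col1a2 in control mice (r = 0.95, permutation p = 0.0181, adjusted 0.0321; rho 0.71, permutation p = 0.136, adjusted 0.168) fell to -0.12 without 2 such mice and rests on them. In PZH mice the same relation (r = 0.94, permutation p = 0.00694, adjusted 0.0185; rho 0.89, permutation p = 0.0333, adjusted 0.0533) stayed at 0.87 without 2 such mice. Col18a1 was the least related, with r of 0.60 (permutation p = 0.218, adjusted 0.233) in PZH mice and 0.49 (permutation p = 0.313, adjusted 0.313) in control mice, and rho of 0.26 in both (permutation p = 0.658, adjusted 0.658).

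The genes that modify, bind or degrade collagen were read from 3 lists, whose counts stand beside the shares over all genes of 32.1% called lower and 12.7% higher as deposited, and of 19.7% and 19.3% with the factor. Of 28 listed genes of collagen processing and crosslinking, 11 were called lower (P4ha1, P4ha2, Plod2, Plod3, P3h1, P3h4, Mia3, Adamts3, Lox, Loxl2 and Loxl4) and 1 higher (Colgalt2), and with the factor 8 and 3. Lox and Loxl2, oxidases that start the crosslinking of fibrils, had log2 fold changes of -0.57 (limma adjusted p = 0.00752) and -0.46 (limma adjusted p = 0.0118). Of the related oxidases on this list, Loxl4 had -1.31 (limma adjusted p = 7.17e-05). Loxl1 and Loxl3 had 0.14 and 0.11 and were not called as deposited. Loxl3 was called higher with the factor (0.21, limma adjusted p = 0.0312). The procollagen chaperone Serpinh1 was not called, with 3.68 to 15.1 FPKM (median 12.5) in PZH mice and 4.53 to 14.9 (median 11.6) in control mice. Of 9 receptor and uptake genes 3 were called lower (Itga2, Itgb1 and Ddr1) and 1 higher (Itga1), and with the factor 2 and 2. Of 9 genes of degradation 4 were called lower (Mmp9, Mmp13, Mmp14 and Timp1) and 3 higher (Mmp2, Ctsk and Timp2), and with the factor 4 and 4. The median log2 fold changes of the 3 lists were -0.16, 0.01 and 0.20.

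The changes of Timp1 and Mmp13 exceeded that of every collagen gene in size, but this was not particular to them. The same held for some other genes of these lists, though not for all. Among them were Loxl4 (log2 fold change -1.31), Mmp14 (-0.957), P4ha1 (-0.886) and Ddr1 (-0.771). Timp1, an inhibitor of matrix metalloproteinases, ranged from 1.06 to 2.50 FPKM in PZH mice and from 7.14 to 13.4 in control mice (log2 fold change -2.13, limma adjusted p = 7.17e-06). Mmp13, an interstitial collagenase, ranged from 1.08 to 1.96 FPKM against 4.4 to 13.5 (-1.87, limma adjusted p = 2.25e-05). Acta2, a marker of myofibroblasts, ranged from 3.48 to 11.5 FPKM (median 5.97) against 6.51 to 16.7 (median 14.2) and was called lower (-0.92, limma adjusted p = 0.0123). Of the 10 stellate cell and myofibroblast markers, 3 were called lower (Acta2, Tagln and Des) and 2 higher (Reln and Lum) on both scales. Of the 6 sinusoidal endothelial markers 1 (Lyve1) was called lower and 0 higher as deposited, and with the factor 1 lower and 2 higher (Kdr and Oit3), with sums of 95.9 to 122.1 FPKM in PZH mice and 100.2 to 115.3 in control mice. The 4 cholangiocyte markers summed to 5.40 to 7.60 FPKM in PZH mice and to 11.9 to 18.8 in control mice, and Sox9 carried this gap, with means of 2.73 and 10.7 FPKM. Sox9 was called lower on both scales, Epcam, at 0 in at least 1 control mouse, was called higher with the factor alone, and Krt19 and Krt7 were not called on either scale. Of 5 macrophage markers 2 were called higher (Clec4f and Vsig4) and 2 lower (Cd68 and Marco) as deposited, and 3 higher and 1 lower with the factor, which added Adgre1 and lost Cd68, with sums of 106.3 to 152 against 99.2 to 150.8 FPKM. None of the 3 mesothelial markers was called on either scale, and their sums were 2.46 to 6.25 and 2.04 to 5.53 FPKM. Of the 6 hepatocyte markers 3 (Alb, Ttr and Cps1) were called higher and 0 lower as deposited, and 5 higher, adding Apoa1 and Apob, with the factor. The part of these cell markers in the collagen values was not tested.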

How the data were processed

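Liver RNA of 12 mice (6 per group) was sequenced by the authors from rRNA-depleted, strand-specific libraries. The submitters' processing notes name Trimmomatic, HISAT2 and StringTie on GRCm38, and the authors deposited FPKM per protein-coding transcript and mouse. These are not counts, only 2.55% to 3.17% of low values of a mouse fell on whole multiples of 1 fragment, the depth is unknown, and no counting interval is given. The lncRNA table was not used.

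Transcripts (29876 of 29883 matched) were assigned to genes by GENCODE M21 and summed, by gene ID where 9 symbols were shared. Values were put on log2(FPKM + 1) without a filter and fitted in R 4.3.3 with limma 3.58.1 on the 2 groups, with Benjamini-Hochberg adjustment over all genes or transcripts. A fold change on this scale understates that of low genes. Ratios and shares of single mice were tested by exact permutation of the group labels. Other steps used Python 3.11.15 (pandas 2.3.3, scipy 1.17.1, numpy 2.4.6 and, for plots, matplotlib 3.10.9). On simulated data of 14188 genes for this comparison, 87% of 200 genes changed by 1 on the log2 scale were recovered and 10 unchanged genes were called. The draws were normal, and the changed genes had a mean of at least 1 FPKM. Smaller changes, such as those of the collagen genes, and changes in more genes were not simulated. Median-ratio factors used 23109 transcripts.

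The members, classes, lists and pairs were chosen with earlier results of these data known. Every member was accounted for, those with a mean of at least 1 FPKM with the lowest, median and highest value. Labels name no batch, and no source says how mice were processed. The p-values set the group difference against the spread between mice of a group. A batch that coincided with the groups could not be told apart from the treatment. Alternatives were a pseudocount of 0.1, a mean of at least 1 FPKM, the median-ratio factor, equal column sums, a mean-variance trend, the highest transcript of each gene, a block on mouse number and each mouse left out. Promoter windows are from RefSeq (GRCm38.p6), in which 5 collagen genes had no entry.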

Additional observations from a re-analysis of the deposited data

Results flagged for a closer look

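In 66 groups of 6 mice (19 genes and 14 ratios or shares in each group), 7 had a highest or lowest mouse whose gap to the nearest other passed Dixon's limit for the share of the whole range, which chance passes in about 5% of groups. For genes the limit was applied on log2(FPKM + 1), while FPKM are given below. Col12a1 was 1.95 FPKM in PZH mouse 2, against 0.781 to 1.02 in the other 5. Col15a1 was 2.77 FPKM in PZH mouse 1, against 4.59 to 6.07, and passed only just, at 0.626 on the log2 scale. Col4a5 was 3.21 FPKM in PZH mouse 6, against 2.51 to 2.67. The log2 ratio of Col5a1 to Col5a2 was -1.11 in PZH mouse 1, against -0.57 to -0.32. The log2 ratio of Col5a2 to Col1a1 was -1.30 in PZH mouse 1, against -2.04 to -1.79, and -1.13 in control mouse 1, against -1.87 to -1.62. The share of Col15a1 on the exon-skipping transcript was 0.562% in PZH mouse 2, against 0% to 0.143% in the other PZH mice. PZH mouse 1, which holds 3 of these 7 values, also had the highest FPKM sum.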

How the results depend on the processing

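The alternatives named in the processing section were run for the gene counts, the classes, the 19 genes above 1 FPKM and the 3 lists. Transcript counts were rerun only with the factor, a pseudocount of 0.1, the block and each mouse left out, and ratios of genes only with a pseudocount of 1, the highest transcript, the block and each mouse left out. Shares over all genes or transcripts were counted only with all mice, as deposited and with the factor. In every other setting below, a move of a collagen or list count cannot be told apart from a move of all calls. With the median-ratio factor the count of collagen genes called lower went from 2 to 1, and that of transcripts from 3 to 1 lower and from 7 to 15 higher. With the factor, 3 processing genes and 2 receptor genes were called higher. With a pseudocount of 0.1, 1 transcript was called lower, 0 receptor genes were called higher, and the fibrillar and basement membrane medians were 0.42 and 0.215. With a mean of at least 1 FPKM, the basement membrane and other medians were -0.48 and 0.24, with 0 processing genes called higher. This setting leaves out Colgalt2, Col4a3, Col4a4 and Col4a6, among other genes. With equal column sums 0 receptor genes were called higher and Col5a2 was -0.01. With the highest transcript of each gene, Col15a1 was 0.47, Col6a6 0.205, and the log2 ratios Col6a1/Col6a2, Col6a3/Col6a1 and Col15a1/Col1a1 were 0.149, 0.101 and 0.40. Col6a6 was 0.061 with the factor. Beyond the genes or transcripts that a setting leaves out, the cause of these moves was not tested.

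Mouse numbers are shared between the groups, and no source says that they pair the mice. The deviations of each mouse from its group means were taken on log2(FPKM + 1) over genes with a mean of at least 1 FPKM. Those of same-numbered mice correlated by -0.0784 to 0.0929, so the numbers were read as names. With the replicate block 2 collagen genes were called lower and 8 higher, 3 transcripts lower and 6 higher, and 0 receptor genes higher. With the block and the factor, 1 was lower and 11 were higher, with 4 processing genes and 3 receptor genes higher, 1 receptor gene lower and Col6a6 at 0.061. In the block by sign flips, where the smallest exact p is 0.0312, the exact p of Col1a1/Col1a2 (-0.23) and Col15a1/Col1a1 (-0.44) was 0.0938, that of Col14a1/Col1a1 (0.42) and of the Col15a1 share (-39.4 points) 0.0625, and that of Col5a2/Col1a1 (-0.156) and Col6a3/Col6a1 (-0.16) 0.0312. Correlations with Col1a1 that lost an unadjusted exact permutation p under 0.05 with the factor, chosen after seeing the data, were Col5a2 (0.66 in PZH, 0.81 in control) and Col15a1 (0.73 in PZH).

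Leaving out 1 mouse at a time gave 1 to 3 collagen genes called lower (1 without PZH mouse 4 or 6 or control mouse 3, 4, 5 or 6, and 3 without PZH mouse 2) and 6 to 9 higher (9 without PZH mouse 1). With the factor it gave 0 to 3 lower and 8 to 11 higher. Transcripts called lower were 1 to 6, processing genes higher 1 to 2 and receptor genes higher 0 to 1. Col5a2 ranged from -0.062 to 0.087 and Col6a6 from -0.12 to 0.048. The log2 ratio Col1a1/Col1a2 ranged from -0.28 to -0.19, Col5a2/Col1a1 from -0.26 to -0.0489, Col6a3/Col6a1 from -0.21 to -0.12 and Col14a1/Col1a1 from 0.35 to 0.53. The ratios Col4a1/Col1a1 and Col3a1/Col1a1 stayed at an unadjusted exact permutation p under 0.05 on leaving out any mouse. Depth is unknown, so the precision of genes under 1 FPKM is given only by the spread between mice.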
